A study of Mus musculus with 15 samples.

Results

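The Dlx and Pou3f genes encode transcription factors that bind DNA through a homeodomain and act in the developing nervous system. Of 17097 genes measured on the arrays, the 7 genes Dlx1, Dlx2, Dlx5, Pou3f1, Pou3f2, Pou3f3 and Pou3f4 were followed across 15 mouse samples of a medulloblastoma study. Their 12 probe sets, 3 for the Dlx and 9 for the Pou3f genes, were those among 45141 deposited probe sets that the platform annotation gave to one of these genes alone. The set was chosen by the measured signals of Dlx1 and Pou3f3, which differed between secondary and primary Myc tumours. For this reason the contrast of secondary with primary tumours is described below with no test for any of the 7 genes. Dlx1 and Pou3f3 are likewise described with no test wherever a Myc tumour group is one side of the comparison.

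Medulloblastoma is a tumour of the cerebellum. Total RNA was measured on one-colour Affymetrix arrays, 1 per sample, in 5 groups of 3 samples. Primary Myc tumours arose in the cerebral cortex of nude mice, into which cerebellar cells infected with Myc had been injected. The donors of those cells were Cdkn2c-/- and Trp53-/- and carried the Atoh1-GFP reporter, which marks granule neuron progenitors. Secondary Myc tumours arose after sphere cells, cultured from primary Myc tumours, had been transplanted orthotopically. Nude mice lack mature T cells and keep their other host cells. Shh tumours were spontaneous medulloblastomas of Cdkn2c-/-; Trp53Fl/Fl; Nestin-Cre mice. In these mice Nestin-Cre deletes Trp53 chiefly in neural progenitors and their progeny rather than in all cells. GFP-positive and GFP-negative cells had been sorted at postnatal day 6 from cerebella of mice that were Cdkn2c-/- and Trp53-/- with Atoh1-GFP. Loss of Cdkn2c was thus common to all 5 groups, so no group was a wild-type control. Before extraction the tumour cells were enriched over a Percoll gradient. Nothing in the labels says whether the 3 samples of a group came from separate mice, whether animals were pooled, or whether secondary tumours went back to more than one sphere culture. Such spread as the p-values rest on is that among these samples and may be technical.

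Dlx factors are made in the ventral forebrain, where Dlx1 and Dlx2 act first and Dlx5 and Dlx6 follow, and they drive the formation and migration of GABAergic interneurons. Dlx1 and Dlx2 lie next to each other in the genome, in opposite orientation. Pou3f factors carry a POU-specific domain beside the homeodomain and often bind DNA together with Sox proteins. Pou3f2 and Pou3f3 act in neural progenitors and young neurons of the brain, Pou3f4 in the inner ear and forebrain, and Pou3f1 in Schwann cells and early neural differentiation.

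Values are log2 signals, so a difference of 1 is a doubling. Background was set at 4.77, the 95th percentile over 23 nonspecific control probe sets. A group with all arrays under it gives only a bound on a fold. Array medians ran from 4.64 to 4.89, and correlations between arrays of a group, across probe sets, from 0.958 to 0.994. Myc primary 3, GFP-negative 3 and Myc secondary 1 stood apart from their groups in earlier work on these arrays. GFP-negative 3 had an interquartile range of 2.989 against 3.33 to 3.782 on the other arrays. Atoh1, the transcription factor of granule neuron progenitors, had means of 9.74 in Shh tumours, 8.92 in GFP-positive and 4.09 in GFP-negative cells, and 4.62 and 5.31 in primary and secondary Myc tumours. The sample labels call the sorted cells spontaneous tumour while the design text calls them cerebellar cells, and the design text was followed. Cdkn2c lay below background in all 5 groups, Trp53 was not measured, and Myc read 5.21 in Myc primary 2 against 8.41 and 9.0 in the other primary tumours.

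These 3 promoters are printed because their genes separated the secondary from the primary Myc tumours on every array, Dlx1 and Dlx2 as neighbours that were both higher and Pou3f3 as the gene that was lower. Each is the 250 bases before the annotated start in RefSeq, on the strand of the gene, in build GRCm38.p6; 5 of the 7 genes had an entry. The regions are chr2:71529195-71529444 on the plus strand for Dlx1, chr2:71546755-71547004 on the minus strand for Dlx2 and chr1:42695518-42695767 on the plus strand for Pou3f3. Capitals mark the E-box CACGTG, the motif that Myc-Max dimers bind, in Dlx2, and the CCAAT box in Pou3f3.
Dlx1: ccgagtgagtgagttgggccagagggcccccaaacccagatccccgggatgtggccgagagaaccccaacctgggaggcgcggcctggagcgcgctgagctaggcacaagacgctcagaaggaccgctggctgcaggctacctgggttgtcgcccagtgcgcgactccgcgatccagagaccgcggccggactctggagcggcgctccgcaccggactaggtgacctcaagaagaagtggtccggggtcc
Dlx2: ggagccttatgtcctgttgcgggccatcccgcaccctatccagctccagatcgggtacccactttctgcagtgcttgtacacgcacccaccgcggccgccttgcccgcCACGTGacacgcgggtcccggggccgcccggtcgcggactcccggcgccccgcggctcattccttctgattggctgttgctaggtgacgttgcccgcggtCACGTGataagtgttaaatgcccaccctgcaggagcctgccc
Pou3f3: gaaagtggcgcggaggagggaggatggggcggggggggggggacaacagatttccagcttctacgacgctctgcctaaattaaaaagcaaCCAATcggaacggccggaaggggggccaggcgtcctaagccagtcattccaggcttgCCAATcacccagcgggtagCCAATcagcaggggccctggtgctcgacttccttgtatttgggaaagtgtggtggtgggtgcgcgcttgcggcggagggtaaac
Searched on both strands were 4 motifs, the E-box CACGTG, the homeodomain core TAATTA, the octamer ATGCAAAT that POU factors bind, and the CCAAT box. The Dlx2 window held 2 E-boxes, which began 142 and 42 bases before the start, and 1 CCAAT box, while the Dlx1 window held none of the 4 motifs. Among 32851 windows of the same length, 6.02% held an E-box and 0.429% held 2 or more. The Pou3f3 window held 3 CCAAT boxes, 160, 103 and 84 bases before the start, on a background of 33.8% of windows with one and 2.79% with 3 or more. Pou3f2 and Pou3f4 held 2 and 3 CCAAT boxes. TAATTA and ATGCAAAT, present in 4.84% and 1.6% of windows, were in none of the 5 windows. A match of letters is a description and was not tied to binding by any measurement here.

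**Figure D1:**
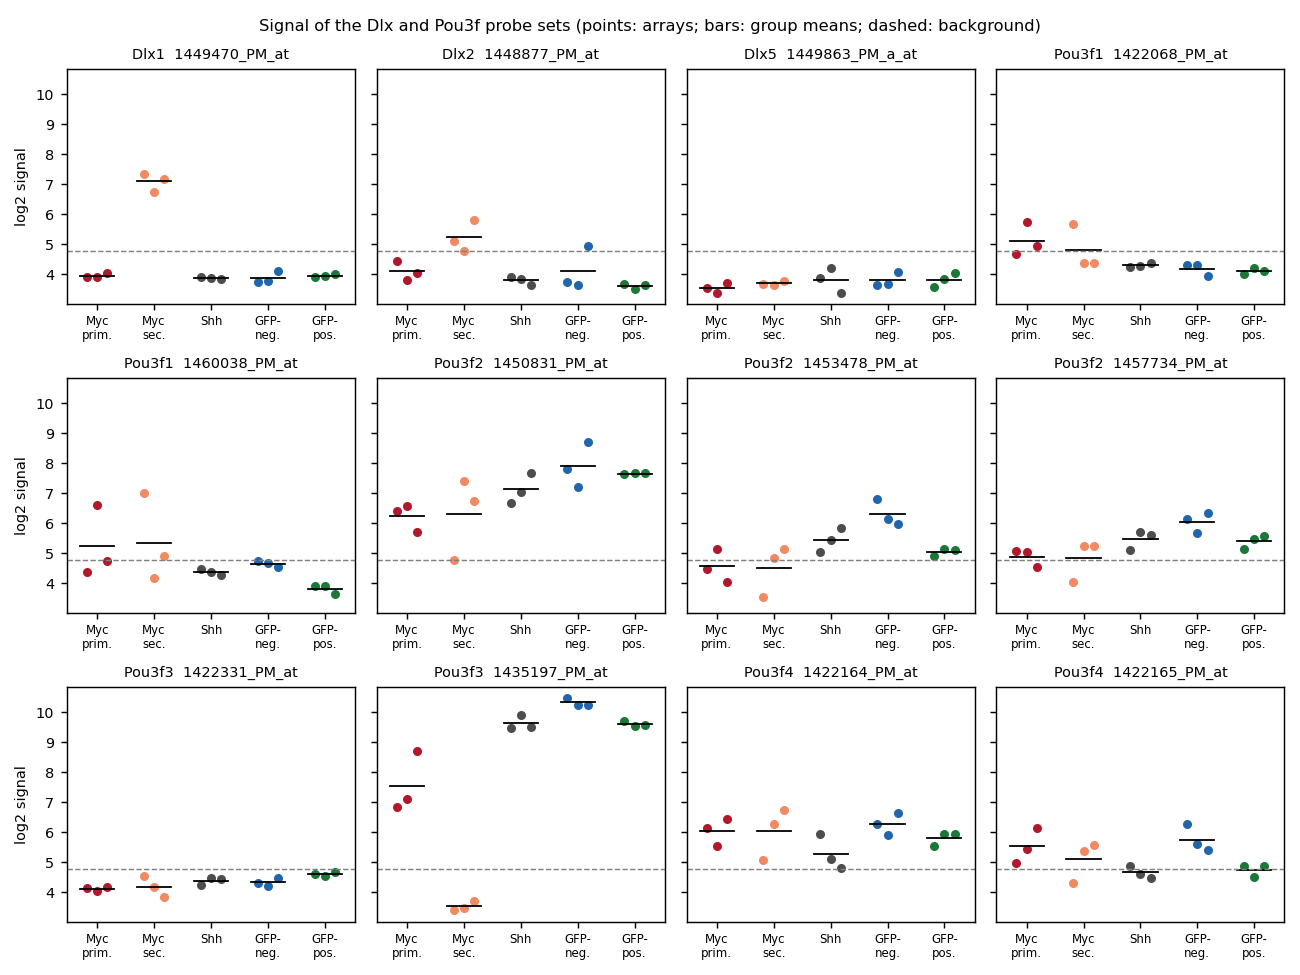
Log2 signal of the 12 probe sets of the 7 genes, 1 panel each, with the 5 groups on the horizontal axis; points are arrays, bars are means of 3 arrays and the dashed line is the background level of 4.77. Dlx1 lay between 6.76 and 7.34 in secondary Myc tumours and under 4.77 on the other arrays, and Pou3f3 on 1435197_PM_at lay between 6.83 and 8.70 in primary and at 3.72 or less in secondary Myc tumours.

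Dlx1 was above background in secondary Myc tumours and in no other group. Dlx1 (1449470_PM_at) read 7.34, 6.76 and 7.19 in the secondary Myc tumours and 3.90, 3.91 and 4.04 in the primary Myc tumours. It read 3.92, 3.88 and 3.84 in Shh tumours, 3.74, 3.79 and 4.11 in GFP-negative cells and 3.90, 3.96 and 4.01 in GFP-positive cells. All 3 secondary tumours thus stood above all 12 other arrays, none of which reached background. The secondary mean of 7.10 ± 0.31 (SD, n = 3) was 3.15 log2 units above the primary mean of 3.95 ± 0.08, and against the background level it was at least 5.02-fold higher than each of the other 4 groups. In a bulk sample, more cells with the transcript and more transcript per cell cannot be told apart. Among the 3 groups without Myc the differences in Dlx1 ran from -0.08 to 0.08, with 95% intervals inside -0.40 to 0.40 (limma, adjusted p = 0.77 or higher).

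Dlx2, the neighbour of Dlx1, was also highest in secondary Myc tumours, at a lower signal. Dlx2 (1448877_PM_at) read 5.12, 4.78 and 5.81 there and 4.46, 3.80 and 4.03 in primary Myc tumours, without overlap. It read 3.91, 3.85 and 3.63 in Shh tumours, 3.69, 3.50 and 3.63 in GFP-positive cells, and 3.76, 3.65 and 4.94 in GFP-negative cells. GFP-negative 3 was the sole array of another group above background and lay within the range of the secondary tumours. The secondary mean of 5.24 ± 0.52 (SD, n = 3) rose over GFP-positive cells by 1.63 ± 0.33 (standard error; limma, adjusted p = 0.0025) and over Shh tumours by 1.44 ± 0.33 (limma, adjusted p = 0.0067). The rise over GFP-negative cells was 1.12 ± 0.33 (limma, adjusted p = 0.016). Because Shh tumours and GFP-positive cells lay under background, the fold over them is bounded only at 1.39 or more. Secondary tumours and GFP-positive cells belong to the later of the runs of sample title numbers, and with a term for the run, estimated from GFP-negative 3 alone, the difference from Shh tumours was 0.20 (limma, adjusted p = 0.81) and that from GFP-negative cells 0.30 (limma, adjusted p = 0.56). The call against GFP-negative cells also ended on the 6 arrays compared (limma, adjusted p = 0.11). Without GFP-negative 1 the difference was 0.95, without GFP-negative 2 it was 0.89 and without Myc secondary 3 it was 0.84, with adjusted p of 0.064 to 0.074 by limma. Dlx2 in primary Myc tumours differed from Shh tumours by 0.30 with a 95% interval of -0.41 to 1.0 and from GFP-negative cells by -0.02 with an interval of -0.72 to 0.69.

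Dlx5, a later factor of the same interneuron cascade, was not above background on any array. Dlx5 (1449863_PM_a_at) had means between 3.55 in primary Myc tumours and 3.82 in Shh tumours, and in the 9 comparisons tested its differences lay between -0.27 and 0.00. The other Dlx genes measured behaved alike in this respect. Dlx3, Dlx4 and Dlx6 and the noncoding Dlx1as and Dlx6os1 had group means between 3.25 and 4.20, all below background. None of these 5 passed in any of the 9 comparisons with limma, and 1 had an unadjusted p below 0.05 in 1 comparison, secondary Myc tumours against GFP-negative cells. Dlx1as, which is transcribed from the opposite strand of the Dlx1 region, read 3.63, 3.60 and 3.38 in the secondary Myc tumours, where Dlx1 was high.

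The genes on either side of Dlx1 and Dlx2 mostly overlapped between the Myc groups. Among the 5 nearest measured genes on each side in RefSeq map order, 1 of 10, Itga6, an integrin chain, had no overlap between secondary and primary Myc tumours, on a background of 18.9% of all probe sets. Itga6 read 8.42, 7.78 and 7.81 against 7.29, 6.61 and 7.58. Metap1d, a mitochondrial aminopeptidase gene and the nearest on the side of Dlx1, had means of 8.72 and 8.67. Pdk1, a kinase gene farther out, had means of 10.05 and 9.24 with overlapping arrays.

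**Figure D2:**
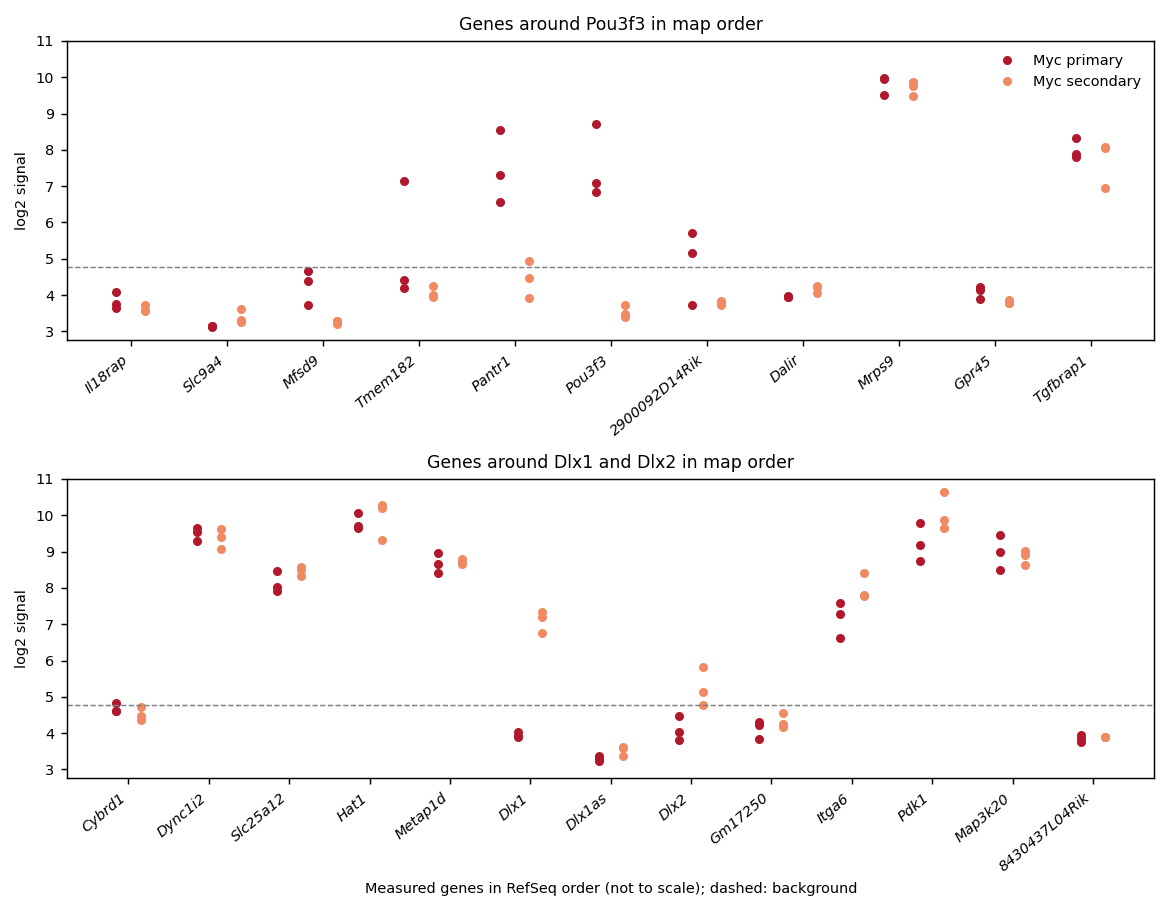
Log2 signal in primary (red) and secondary (orange) Myc tumours for the measured genes around Pou3f3 (upper panel) and around Dlx1 and Dlx2 (lower panel), in RefSeq map order and not to scale; points are arrays and the dashed line is background. Pou3f3 and its neighbour Pantr1 were lower in all 3 secondary tumours, whereas Mrps9 read 9.82 and 9.70 on average in primary and secondary tumours.

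Genes linked to Dlx in GABAergic neurons were read from a list of 21, of which 17 were measured. Gad1 and Slc32a1, the enzyme that makes GABA and the transporter that loads it into vesicles, were below background in all 3 tumour groups, with means of 3.50 and 3.52 in secondary Myc, 3.53 and 3.35 in primary Myc and 3.64 and 3.44 in Shh tumours. In GFP-positive cells Gad1 and Slc32a1 had means of 9.28 and 6.10, and in GFP-negative cells 8.39 and 5.50. Gad1 in GFP-positive cells was at least 22.9-fold above secondary Myc tumours (limma, adjusted p = 1.4e-07). Lhx6, Gsx1, Nkx2-1 and Sp8, factors of the ventral forebrain, stayed below background in every group mean, but Gsx2 and Isl1 did not. Gsx2 was above background on average in GFP-negative cells alone, at least 1.18-fold above each other group (limma, adjusted p = 0.00028 or lower). Isl1 was above it on average in Shh tumours alone, with a mean of 5.58. Lhx8, a LIM homeobox factor of ventral forebrain neurons, was above background in the Myc tumours alone. Its means were 6.66 in primary and 7.70 in secondary Myc tumours and 3.32 to 3.39 elsewhere. Its signal in primary Myc tumours was at least 3.71-fold above Shh tumours (limma, adjusted p = 4.7e-07). Nrp2, a semaphorin receptor repressed by Dlx1 and Dlx2 in the forebrain, had means of 8.95 in primary and 9.41 in secondary Myc tumours against 4.65 in Shh tumours, 4.52 in GFP-positive and 6.70 in GFP-negative cells.

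By counts, 3 of the 17 genes rose and 1 fell in secondary Myc against Shh tumours, where 10.5% of all genes rose and 12.2% fell; besides Lhx8 and Nrp2 these were Meis2, a homeobox factor of the striatum (4.79 against 3.52, the latter under background, so at least 1.02-fold, adjusted p = 0.028 by limma), and Zeb2, a zinc finger factor of migrating interneurons (-1.98 ± 0.43, adjusted p = 0.0055 by limma). In primary Myc against Shh tumours 2 rose and 1 fell, on a background of 8.25% and 7.2%. Against GFP-negative cells 2 rose and 7 fell in primary and 2 rose and 7 fell in secondary Myc tumours, on backgrounds of 18.8% and 14.5% and of 19.3% and 17.9%. Against GFP-positive cells the counts were 3 and 4 in primary and 4 and 3 in secondary Myc tumours, on backgrounds of 14.4% and 10.3% and of 13.3% and 11.7%. Shh tumours had 7 lower and 0 higher than GFP-negative cells, beside 12.8% and 15.5% of all genes, and 3 lower and 0 higher than GFP-positive cells, beside 3.12% and 4.88%. GFP-positive cells had 2 higher and 6 lower than GFP-negative cells, beside 12.5% and 13.8%. The list median lay between -0.36 and 0.11 in these 9 comparisons and that of all genes between -0.01 and 0.08.

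Markers fixed for the forebrain, the site of injection of the primary Myc tumours, gave means per array of 4.42 to 4.86 in primary and 4.48 to 5.56 in secondary Myc tumours, with 2 and 2 to 3 of 6 measured genes above background. In Shh tumours, which grew in the cerebellum, the range was 5.59 to 5.87. Emx1, Emx2 and Tbr1, defining genes of the cerebral cortex, had group means below background in both Myc groups, at 3.11 to 4.63, as did Fezf2. Lhx2, a homeobox factor of the cortex and of other neurons, had means of 6.43 in primary and 7.0 in secondary Myc tumours, 9.05 in Shh tumours, 5.41 in GFP-positive and 3.90 in GFP-negative cells. Neurod6, a factor of excitatory neurons, had means of 6.94 and 7.27 in primary and secondary Myc tumours, 9.53 in Shh tumours, 9.08 in GFP-positive and 4.50 in GFP-negative cells. Whether host brain cells had a part in the Dlx signal was not tested beyond these values.

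Pou3f3 was lowest in secondary Myc tumours, where it lay under background, and highest in GFP-negative cells. On 1435197_PM_at Pou3f3 read 10.48, 10.26 and 10.26 in GFP-negative cells, 9.47, 9.92 and 9.51 in Shh tumours and 9.70, 9.56 and 9.58 in GFP-positive cells. It read 6.83, 7.10 and 8.70 in primary and 3.41, 3.48 and 3.72 in secondary Myc tumours. The primary Myc tumours lay below all arrays of the 3 other groups, and the secondary tumours below all primary ones. From primary (7.54 ± 1.01, SD, n = 3) to secondary tumours (3.54 ± 0.16) the mean differed by -4.00, and against background primary tumours were at least 6.85-fold and Shh tumours at least 29.2-fold above secondary ones. Among the groups without Myc, Shh tumours differed from GFP-positive cells by 0.02 ± 0.36, with a 95% interval of -0.75 to 0.80 (limma, adjusted p = 0.98). GFP-negative cells did not overlap with Shh tumours or GFP-positive cells, but Shh tumours at -0.70 ± 0.36 (limma, adjusted p = 0.18) and GFP-positive cells at -0.72 ± 0.36 (limma, adjusted p = 0.17) did not pass the test.

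Myc primary 3, the highest primary tumour for Pou3f3, was also the highest of its group for markers of oligodendrocytes, astroglia, fibroblasts and endothelium. The 8 measured of 10 oligodendrocyte lineage markers had a mean of 8.71 on that array, with 8 above background, against 5.62 with 7 and 4.64 with 4 in Myc primary 1 and 2. In the secondary tumours the mean was 4.41 to 4.81, in Shh tumours 5.53 to 5.84, in GFP-negative cells 8.32 to 9.67 and in GFP-positive cells 4.72 to 4.85. Astroglia markers had means of 6.74, 4.21 and 7.01 in Myc primary 1, 2 and 3. Endothelial markers had 5.24, 4.96 and 6.49, and fibroblast markers 4.98, 5.55 and 7.28. Markers of microglia and macrophages did not follow, at 5.80, 5.46 and 5.58, and were highest in Myc primary 1. Pou3f3 read 6.83 and 7.10 in Myc primary 1 and 2, the same order as the fibroblast markers and the reverse of the other markers named. Without Myc primary 3 the difference in Pou3f3 between secondary and primary tumours was -3.43, and without all 3 arrays that stood apart it was -3.36. The part of these cells in the level of Pou3f3 was not tested.

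The other Pou3f3 probe set, 1422331_PM_at, lay between 3.83 and 4.67 and so below background on all 15 arrays. Over the 15 arrays the pair of Pou3f3 probe sets had a Pearson r of 0.45. The pattern of Pou3f3 therefore rests on 1435197_PM_at, which the annotation lists with an expressed sequence tag, whereas 1422331_PM_at is listed with the RefSeq mRNA. Where either lies along the transcript was not analysed here.

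**Figure D3:**
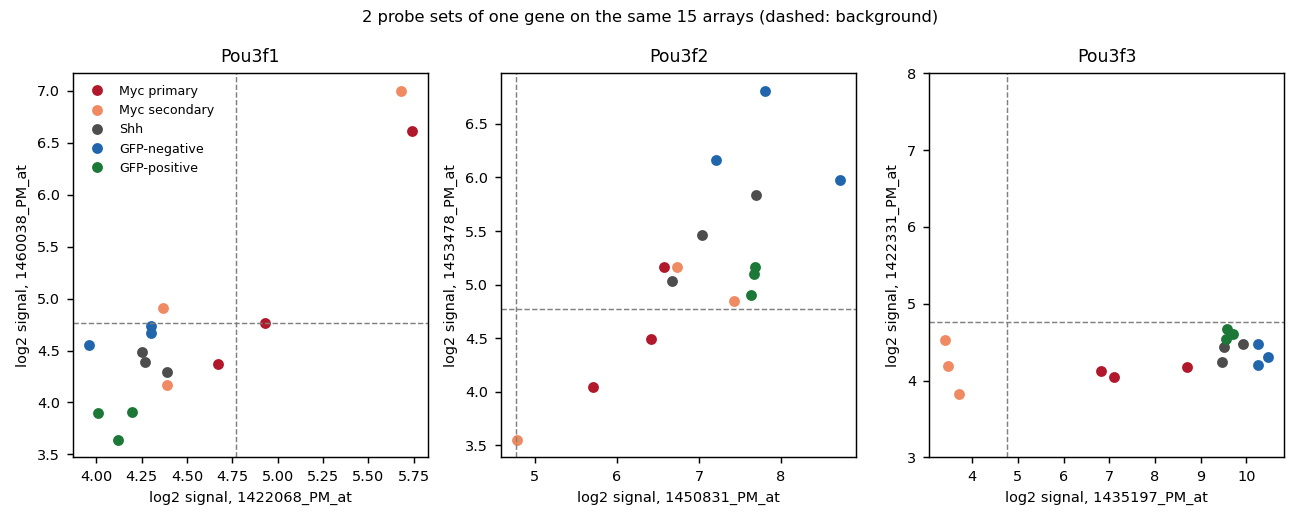
Log2 signals of 2 probe sets of one gene plotted against each other on the 15 arrays for Pou3f1 (left), Pou3f2 (middle) and Pou3f3 (right); colours are groups and dashed lines mark background. The Pou3f1 and Pou3f2 pairs rose together, with Pearson r of 0.90 and 0.77, whereas 1422331_PM_at of Pou3f3 stayed under background while 1435197_PM_at ranged from 3.41 to 10.48.

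Pantr1 and 2900092D14Rik, the noncoding genes next to Pou3f3 on either side, were likewise lowest on average in secondary Myc tumours. Pantr1, a long noncoding RNA transcribed next to Pou3f3, read 6.57, 7.30 and 8.54 in primary and 4.48, 4.93 and 3.92 in secondary Myc tumours, a difference of -3.02 without overlap. Its means were 9.20 in Shh tumours, 10.35 in GFP-negative and 8.59 in GFP-positive cells. Pantr1 was lower in GFP-positive than in GFP-negative cells (-1.76 ± 0.43; limma, adjusted p = 0.009). On the other side, 2900092D14Rik read 3.72, 5.17 and 5.71 in primary and 3.84, 3.72 and 3.81 in secondary Myc tumours, which overlapped. Shh tumours were lower in 2900092D14Rik than GFP-negative cells (-1.40 ± 0.40, 7.14 against 8.53; limma, adjusted p = 0.022). Farther out, Mrps9, a mitochondrial ribosomal protein, and Tgfbrap1 had primary means of 9.82 and 8.01 and secondary means of 9.70 and 7.69, with overlap. In all, 5 of the 10 nearest measured genes had no overlap between secondary and primary tumours, on the background of 18.9%, but apart from Pantr1 these were Slc9a4, Mfsd9, Dalir and Gpr45, whose means were below background in both Myc groups. Slc9a4 and Dalir were higher in secondary tumours (0.26 and 0.21), and Mfsd9 and Gpr45 were lower (-1.01 and -0.26).

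Pou3f2, a partner of Sox factors in neural progenitors, was lower in both Myc groups than in GFP-negative cells on all 3 of its probe sets. The most intense, 1450831_PM_at, read 6.41, 6.57 and 5.71 in primary Myc tumours, 4.78, 7.42 and 6.73 in secondary Myc tumours, 6.67, 7.03 and 7.69 in Shh tumours, 7.80, 7.21 and 8.72 in GFP-negative cells and 7.63, 7.68 and 7.67 in GFP-positive cells. Primary Myc tumours did not overlap with any of the 3 groups without Myc, while the secondary tumours spread from 4.78 to 7.42, with Myc secondary 1 the lowest array of all. Both fell below GFP-negative cells, primary tumours with a difference of -1.68 ± 0.56 (6.23 against 7.91; limma, adjusted p = 0.038) and secondary tumours with -1.60 ± 0.56 (6.31 against 7.91; limma, adjusted p = 0.041). Without Myc secondary 1 the latter was -0.84 (limma, adjusted p = 0.15), and without the 3 arrays that stood apart -0.44 (adjusted p = 0.32). It also ended without GFP-negative 1 (-1.66, adjusted p = 0.074) or GFP-negative 3 (-1.20, adjusted p = 0.14), on the 6 arrays compared and with median centring. The former ended with each of Myc primary 1 (-1.77), Myc primary 2 (-1.85), Myc primary 3 (-1.42), GFP-negative 1 (-1.73) or GFP-negative 3 (-1.28) left out, with adjusted p of 0.055 to 0.13 by limma, and also with the run term (-1.28, adjusted p = 0.13) and median centring (-1.52, adjusted p = 0.051).

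The other probe sets of Pou3f2 gave the same direction with less spread. On 1453478_PM_at the arrays read 4.49, 5.16 and 4.04 in primary and 3.55, 4.85 and 5.16 in secondary Myc tumours, against 6.81, 6.16 and 5.98 in GFP-negative cells. Both Myc groups lay below every GFP-negative array. Their means, 4.56 in primary and 4.52 in secondary tumours, were under background, with 1 and 2 of 3 arrays above it. The sizes of the differences on this probe set are therefore uncertain. Here the difference was -1.75 ± 0.40 in primary tumours (limma, adjusted p = 0.0044), a call that held under all 13 alternatives, and -1.80 ± 0.40 in secondary tumours (limma, adjusted p = 0.0031), a call that ended with the run term (-1.46, adjusted p = 0.072). On 1457734_PM_at the differences were -1.15 ± 0.31 (limma, adjusted p = 0.013) in primary and -1.20 ± 0.31 (limma, adjusted p = 0.0087) in secondary tumours. The first ended without Myc primary 3 (-0.98, adjusted p = 0.053) and the second on the 6 arrays compared (-1.20, adjusted p = 0.064). GFP-positive cells read 4.90, 5.16 and 5.10 on 1453478_PM_at and fell below GFP-negative cells, at -1.27 ± 0.40 (limma, adjusted p = 0.032). The same comparison gave -0.25 ± 0.56 on 1450831_PM_at and -0.63 ± 0.31 on 1457734_PM_at, neither past the test, and on 1453478_PM_at the call ended with the run term (-0.93, adjusted p = 0.26) and without GFP-negative 1 or 2 or any one GFP-positive array (-1.02 to -1.34, adjusted p of 0.059 to 0.11). Shh tumours read 5.03, 5.46 and 5.84 on 1453478_PM_at, between the Myc groups and GFP-negative cells, and passed against neither.

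On the order of group means, Pou3f2 on 1450831_PM_at ran from GFP-negative (7.91) through GFP-positive (7.66), Shh (7.13) and Myc secondary (6.31) to Myc primary (6.23). No pair of neighbours in that order differed beyond the spread. Secondary and primary Myc tumours were 0.07 apart on that probe set and -0.04 apart on each of the other probe sets, beside -4.00 for Pou3f3.

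Pou3f4, a factor of the inner ear and forebrain whose gene lies on chromosome X, was lowest in Shh tumours and between Shh and GFP-negative levels on average in the Myc tumours. On 1422165_PM_at Pou3f4 read 4.89, 4.62 and 4.48 in Shh tumours and 6.27, 5.60 and 5.40 in GFP-negative cells, without overlap. The difference of -1.09 ± 0.35 (limma, adjusted p = 0.037) ended when Shh 1, 2 or 3 or GFP-negative 1 or 2 was left out, at -0.84 to -1.21, with adjusted p of 0.056 to 0.13 by limma. GFP-positive cells read 4.87, 4.51 and 4.86, a difference of -1.01 from GFP-negative cells that missed the threshold (limma, adjusted p = 0.053). The means of 4.66 in Shh tumours and 4.75 in GFP-positive cells were under background, with 1 and 2 of 3 arrays above it. The sizes of these differences and the order of Shh tumours and GFP-positive cells on this probe set are therefore uncertain. Primary Myc tumours read 4.98, 5.45 and 6.15 and secondary ones 4.32, 5.39 and 5.59. Their differences from GFP-negative cells were -0.23, with a 95% interval of -0.99 to 0.54, and -0.66, with an interval of -1.42 to 0.11. On 1422164_PM_at, the more intense probe set, Pou3f4 read 5.93, 5.10 and 4.81 in Shh tumours and 6.28, 5.90 and 6.66 in GFP-negative cells, a difference of -1.0 ± 0.40 that did not pass (limma, adjusted p = 0.09). On that probe set the arrays read 6.15, 5.54 and 6.45 in primary Myc tumours, 5.09, 6.27 and 6.76 in secondary Myc tumours and 5.53, 5.94 and 5.96 in GFP-positive cells, and every pair of groups overlapped. On 1422164_PM_at both Myc groups were within 0.24 of GFP-negative cells, with 95% intervals of -1.11 to 0.64 for primary and -1.12 to 0.63 for secondary tumours. The pair of probe sets had a Pearson r of 0.70 over the 15 arrays.

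Pou3f1, a factor best known from myelinating Schwann cells, was highest in single Myc tumours. On 1422068_PM_at it was also higher in the primary Myc group than in the sorted cells. On 1460038_PM_at Pou3f1 read 6.61 in Myc primary 2 and 7.0 in Myc secondary 1, against 4.37 and 4.76 in the other primary and 4.17 and 4.91 in the other secondary tumours. Shh tumours read 4.49, 4.39 and 4.29, GFP-negative cells 4.74, 4.67 and 4.55 and GFP-positive cells 3.90, 3.91 and 3.64, all below background. The same 2 tumours were highest on 1422068_PM_at, at 5.74 and 5.68, and the pair of probe sets had a Pearson r of 0.90. On 1422068_PM_at primary tumours read 4.67, 5.74 and 4.93 and overlapped with no group without Myc. Their difference of 0.81 from Shh tumours did not pass (limma, adjusted p = 0.12). Primary tumours rose above GFP-negative cells by 0.93 ± 0.32 (limma, adjusted p = 0.046) and above GFP-positive cells by 1.0 ± 0.32 (limma, adjusted p = 0.039). With those cells under background the fold is bounded only at 1.27 or more. The first call held under 5 and the second under 7 of 13 alternatives, and without Myc primary 2 the differences were 0.62 (limma, adjusted p = 0.19) and 0.69 (limma, adjusted p = 0.16). Each also ended without Myc primary 3 (1.02 and 1.09), with the run term, and without any one array of the sorted group compared (0.82 to 0.99 against GFP-negative and 0.95 to 1.05 against GFP-positive cells). On 1460038_PM_at none of the 6 comparisons of a Myc group with another group passed (limma, adjusted p of 0.1 to 0.54).

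The tumours that were high in Pou3f1 were not the highest of their groups in Schwann cell markers. The 2 measured of 4 listed markers, Pmp22, a myelin protein, and Egr2, had a mean of 7.19 in Myc primary 2, between 5.99 and 8.02 in the other primary tumours, and of 5.06 in Myc secondary 1 against 7.03 and 7.18 in the other secondary ones. Myc itself was lowest in Myc primary 2 and highest in Myc secondary 1 within their groups, at 5.21 and 10.10.

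**Figure D4:**
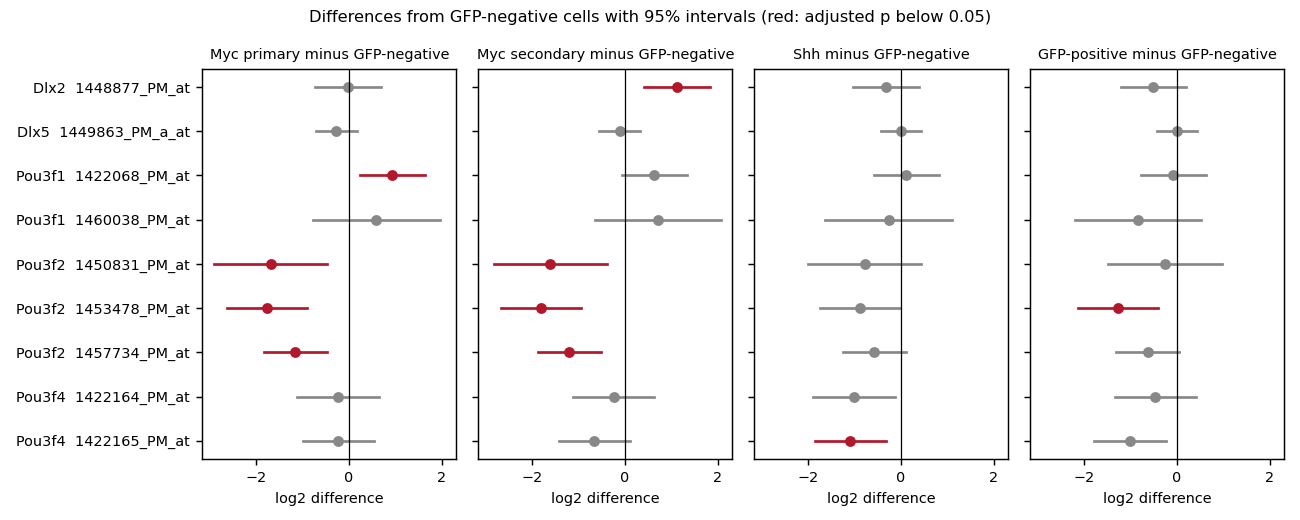
Differences in log2 signal from GFP-negative cells with 95% intervals for the 9 probe sets of Dlx2, Dlx5, Pou3f1, Pou3f2 and Pou3f4, in panels for primary Myc tumours, secondary Myc tumours, Shh tumours and GFP-positive cells; red marks an adjusted p below 0.05. The 3 Pou3f2 probe sets were red and to the left of 0 in both Myc panels, at -1.15 to -1.75 in primary and -1.20 to -1.80 in secondary tumours.

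Counted over the 9 probe sets of the 5 genes other than Dlx1 and Pou3f3, 4 of 9 were called in primary Myc tumours against GFP-negative cells, 1 higher and 3 lower, where 30.4% of all probe sets were called. In secondary Myc tumours against GFP-negative cells 4 of 9 were called, 1 higher and 3 lower, beside 35.9% of all. The 3 lower ones were the Pou3f2 probe sets both times, which share a gene and are not independent. Primary Myc tumours had 1 of 9 called against GFP-positive cells, beside 23.8%, and 0 of 9 against Shh tumours, beside 14.4%; 3 of these 9 had an unadjusted p below 0.05 in limma. Secondary Myc tumours had 1 of 9 called, Dlx2, against Shh tumours and 1 of 9, again Dlx2, against GFP-positive cells, beside 21.9% and 23.6%. Of all 12 probe sets 1 was called in Shh tumours against GFP-negative cells and 1 in GFP-positive against GFP-negative cells, beside 26.1% and 25.7%. Shh tumours against GFP-positive cells gave 0 of 12 calls in limma, and 0 with an unadjusted p below 0.05, beside 8.54%. With so few probe sets, a count of 4 of 9 beside 30.4% or 35.9% is near the background, and the other counts were under it. In secondary against primary Myc tumours, the contrast used in the choice, 1.64% of all probe sets were called, and 1 of the 9, Dlx2, had no overlap beside 18.9% of all. Groups did not overlap for 4 of 9 probe sets in primary Myc against Shh tumours (34.8% of all), 4 of 9 against GFP-negative (38.2%) and 6 of 9 against GFP-positive cells (45.2%). In secondary Myc tumours these were 1 of 9 (41.9%), 3 of 9 (42.2%) and 4 of 9 (43.9%). Among the groups without Myc they were 4 of 12 in Shh against GFP-negative (38.7%), 3 of 12 in Shh against GFP-positive (39.8%) and 6 of 12 in GFP-positive against GFP-negative cells (42.1%). The median difference of the members ran from -0.49, in GFP-positive against GFP-negative cells, to 0.44, in secondary Myc against Shh tumours, where all probe sets had medians of 0.07 and 0.08. Comparisons that name the same group share its 3 arrays.

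Among other POU genes 7 of 11 were measured. Pou6f1, a POU factor of mature neurons and other tissues, was lower in both Myc groups than in the 3 groups without Myc. Its mean was 7.05 in primary and 6.34 in secondary Myc tumours against 9.27 in Shh tumours, 9.87 in GFP-negative and 9.30 in GFP-positive cells, and the difference of secondary Myc tumours from GFP-negative cells was -3.53 ± 0.31 (limma, adjusted p = 3.3e-06). Pou4f1, a factor of sensory and other projection neurons, was highest in Shh tumours, with a mean of 7.23 against 4.95 in GFP-negative cells (limma, adjusted p = 0.0088) and 3.87 in GFP-positive cells (limma, adjusted p = 0.0027). It had means of 5.83 in primary and 6.21 in secondary Myc tumours, both higher than GFP-positive cells (limma, adjusted p = 0.021 and adjusted p = 0.0079). Pou2f2, Pou2f3, Pou4f3 and Pou5f1 had all group means below background, where Pou4f3 gave the list's remaining call (secondary Myc against Shh tumours, adjusted p = 0.044 by limma) with no fold to be given, and Pou5f2 had group means of 5.89 to 6.40 with no call. In each comparison 0 or 1 of the 7 rose and 0 or 1 fell, beside 3.12% to 19.3% of all genes in 1 direction, as given above for each comparison.

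Partners and targets of Pou3f factors were read from a list of 19, of which 17 were measured. Most calls were against GFP-negative cells, in which many of these genes were highest. Against those cells 2 rose and 9 fell in primary Myc tumours (median -1.98), 2 and 9 in secondary Myc tumours (median -1.95), 2 and 9 in Shh tumours (median -0.70) and 3 and 8 in GFP-positive cells (median -1.69), while the median of all genes was 0.01 to 0.05. The lower genes included Rfx4, a factor of radial glia, with a mean of 9.55 in GFP-negative cells and 3.94 to 4.38 in the other groups (limma, adjusted p = 4e-07 or lower). Sox2, the stem cell partner of Pou3f2, had means of 11.05 in GFP-negative cells, 8.36 in Shh tumours, 6.92 in primary and 5.21 in secondary Myc tumours and 6.35 in GFP-positive cells. Pax3 had a mean of 10.82 in GFP-negative cells and of 5.13 and 3.90 in primary and secondary Myc tumours (limma, adjusted p = 1.5e-05 and adjusted p = 2.8e-06). The higher genes were neuronal: Tubb3, a neuronal tubulin, rose by 2.91 ± 0.30 and Myt1l, a zinc finger factor that works with Pou3f2 in making neurons, by 3.34 ± 0.36 in primary Myc tumours (limma, adjusted p = 1.4e-05 and adjusted p = 2.2e-05). Sox4 and Sox11, the Sox genes of young neurons, were at 11.10 or more in every group mean. Sox11 was lower than in GFP-positive cells in primary Myc (-0.95), secondary Myc (-0.88) and Shh tumours (-1.16), with adjusted p of 0.0014 or lower by limma.

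Other comparisons gave fewer calls in this list. Primary Myc against Shh tumours had 1 higher (Myt1l) and 1 lower (Egr2, a factor that acts after Pou3f1 in Schwann cells), and secondary Myc against Shh tumours 1 higher (Myt1l) and 3 lower (Pax3, Sox2 and Egr2). Against GFP-positive cells 2 rose and 2 fell in primary and 2 rose and 4 fell in secondary Myc tumours, and Shh tumours had 1 higher and 2 lower. These counts stand beside the shares of all genes given above for each comparison. Markers of other cells moved with this list: the 7 astroglia markers had a mean of 8.50 to 9.77 in GFP-negative cells with 7 above background, 4.21 to 7.01 in primary and 4.38 to 4.98 in secondary Myc tumours, 4.74 to 5.27 in Shh tumours and 3.93 to 4.13 in GFP-positive cells. The 6 markers of microglia and macrophages read 9.12 to 10.55 in GFP-negative cells and 3.83 to 7.10 in the other groups. Their part in the levels of Pou3f2, Pou3f3 and the listed genes in GFP-negative cells was not tested.

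**Figure D5:**
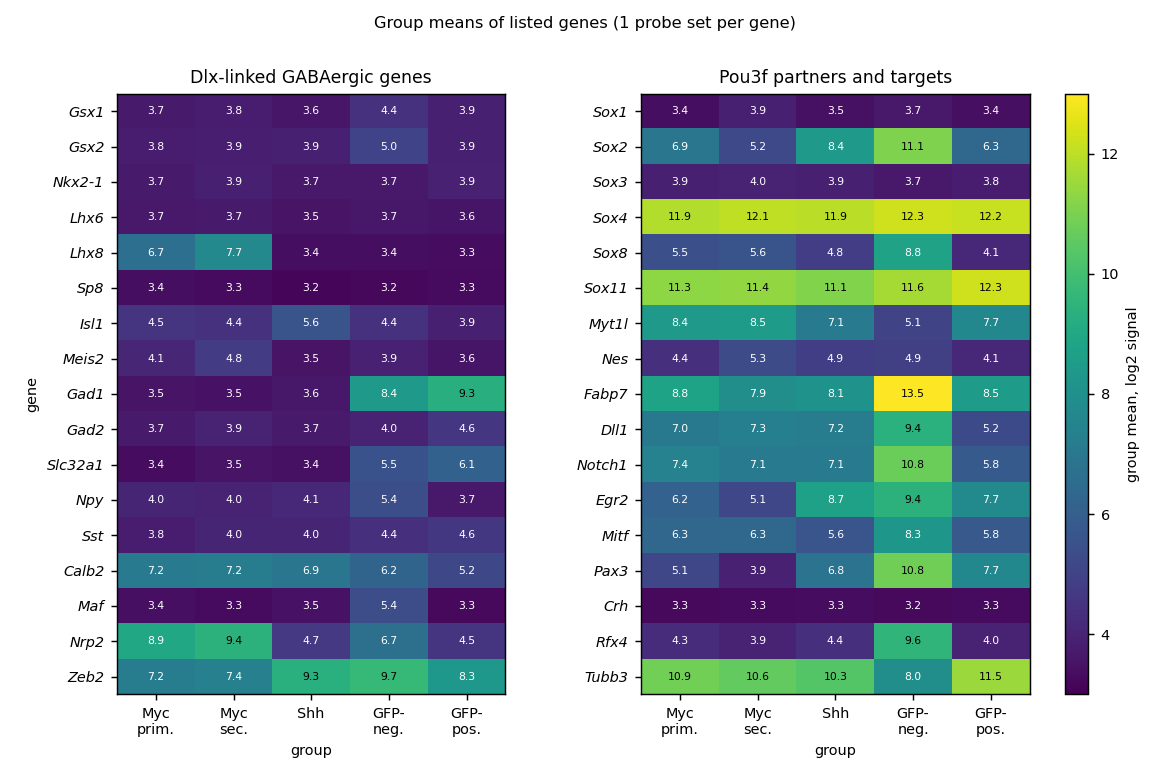
Group means in log2 signal, 1 probe set per gene, for 17 genes linked to Dlx in GABAergic neurons (left) and 17 partners and targets of Pou3f factors (right); columns are the 5 groups, and colour and printed value give the mean of 3 arrays. Lhx8 was above background in the Myc tumours alone, Gad1 in the sorted cells alone, and Rfx4 at 9.55 in GFP-negative cells alone.

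The genes whose signal was most like that of each member over the 15 arrays were found among 10840 genes above background. For Pou3f3 these were Itm2b, an amyloid-related membrane protein (Pearson r 0.974), Pantr1 (0.971) and Acaa1a, a peroxisomal thiolase (0.968). Itm2b had means of 11.46 in primary and 10.43 in secondary Myc tumours and of 12.69 or more elsewhere. For Dlx1 they were Tyw1 (0.912), Mib1, a ubiquitin ligase of the Notch pathway (0.905), and Tpp2 (0.894), whose secondary Myc means of 6.00, 10.25 and 9.74 were the highest of the 5 groups for each. With Dlx1 at one level on 12 arrays, its r reflects the 3 secondary tumours against the rest. Dlx2 was nearest to Tead4 (0.902), Cd5l (0.857) and Runx3 (0.844). Those genes had secondary Myc means of 4.88, 5.12 and 5.2 and, like Dlx2, lay below background in every other group mean. They entered the search through that group alone, so their likeness to Dlx2 was partly built in and lies near background. Pou3f1 was nearest to Jade2 (0.903), Zbbx (0.865) and Aif1l (0.854). Zbbx, like Pou3f1, was above background on average in the Myc groups alone, at 4.98 in primary and 4.99 in secondary tumours. Its likeness to Pou3f1 was therefore also partly built in and lies near background. Pou3f2 was nearest to Itsn1 (0.878), Pcmtd1 (0.871) and Nxn (0.867), and Pou3f4 to Rbms3 (0.844), Tspan4 (0.827) and Khdrbs2 (0.791). The arrays share groups, so these values describe likeness of level across 5 groups and were given no test.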

How the data were processed

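The deposited values were log2 signals that the authors had made with RMA in Partek 6.5, per the submitters' processing notes; further settings are not given in the sources used here. All 45141 probe sets on 15 arrays were used as deposited, in 1 table. Probe sets were named through the platform annotation, updated by gene identifier to RefSeq of GRCm38.p6. The 28898 with 1 gene were fitted (551 with several genes, 15588 with none and 104 controls were left out; 28689 symbols were matched by identifier). limma 3.58.1 in R 4.3.3 fitted the 5 group means in 1 model (10 residual and 2.61 prior degrees of freedom). All p-values are two-sided with Benjamini-Hochberg adjustment over all probe sets of a comparison, and a probe set was called, or said to rise or fall, at an adjusted p below 0.05. Standard errors and 95% intervals come from this fit, and SDs from 3 arrays. The number of arrays limits the precision. Before use, the fit was tested on simulated data.

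All probe sets of the 7 genes are named. List genes were counted on their most intense probe set. Those named with a test were taken from up to 4 per list and comparison with the smallest adjusted p, and not all of these were named. List genes given by group means alone, and the genes next to Dlx1 and Pou3f3, were picked after their values were seen. The 3 genes most like each member excluded predicted genes. The members, lists, tests and alternatives were chosen with earlier results of these data known. Alternatives were 1 probe set per gene, removal of dim probe sets (all group means at or under the 25% quantile of 3.79), cyclic loess, median centring, only the 6 arrays compared, an intensity trend with robust variance (statmod 1.5.0), omission of Myc primary 3, GFP-negative 3 and Myc secondary 1 together, a term for the earlier or later run of sample title numbers, and each array left out. Replicate numbers only name arrays, and no pairing was given. Tables and figures were made in Python 3.11.15 (pandas 2.3.3, numpy 2.4.6, matplotlib 3.10.9).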

Additional observations from a re-analysis of the deposited data

How the results depend on the processing

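None of the 13 called differences of members changed sign under its alternatives, nor did Dlx1 and Pou3f3 (1435197_PM_at) in secondary against primary Myc tumours. The difference of 0.07 on 1422331_PM_at of Pou3f3, below background throughout, became -0.08 without the 3 arrays that stood apart, -0.15 with the run term and -0.11 without Myc secondary 1. The other differences of members had no alternatives run one by one. Of the 13 calls of single probe sets, Dlx2 in secondary Myc tumours against GFP-positive cells (14 of 14 alternatives) and Pou3f2 on 1453478_PM_at in primary Myc tumours against GFP-negative cells (13 of 13) held throughout. Counts of called members moved as follows. With 1 probe set per gene they were 1 instead of 4 for primary Myc against GFP-negative, 2 instead of 4 for secondary Myc against GFP-negative, and 0 instead of 1 for primary Myc against GFP-positive, Shh against GFP-negative and GFP-positive against GFP-negative; this setting tests fewer probe sets. On only the 6 arrays compared they were 2 for primary Myc against GFP-positive, 1 for secondary Myc against GFP-negative, 2 for Shh against GFP-negative, 1 instead of 0 for Shh against GFP-positive, and 4 for GFP-positive against GFP-negative. Without the 3 arrays that stood apart they were 1 instead of 0 for primary Myc against Shh, 3 for primary Myc against GFP-positive, 3 for secondary Myc against Shh, 2 for secondary Myc against GFP-positive, 3 for Shh against GFP-negative and 3 for GFP-positive against GFP-negative. The run term gave 2 for primary and 2 for secondary Myc against GFP-negative and 0 for secondary Myc against Shh. Cyclic loess gave 3 for Shh against GFP-negative and 2 for GFP-positive against GFP-negative, where leaving out dim probe sets and the intensity trend also gave 2. The cause of these shifts was not tested.

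With each array left out in turn, counts ranged from 1 to 3 for primary Myc against GFP-negative, 0 to 1 for primary Myc against GFP-positive, 1 to 2 for secondary Myc against Shh, 2 to 4 for secondary Myc against GFP-negative, 1 to 3 for secondary Myc against GFP-positive, 0 to 1 for Shh against GFP-negative and 0 to 2 for GFP-positive against GFP-negative, and stayed at 0 for the other two. The run term moved Dlx1 in secondary against primary Myc tumours from 3.15 to 2.81. Median centring moved the median of all probe sets by up to 0.27, in secondary Myc against GFP-negative. Of the probe sets tested, 36.7% had no group mean above background, which limits Dlx5 and one Pou3f3 probe set here.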
